A study of Mus musculus with 10 samples.

Results

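Signals of 6 genes that mark the projection neurons of the striatum were followed on each of 10 arrays of mouse hippocampal RNA. The genes are Ppp1r1b, Rgs9, Pde10a, Drd1, Drd2 and Rarb, out of 18193 genes named on the array. Adora2a, the 7th gene of the set, was not analysed here. All 13 probe sets annotated to one of the 6 genes alone were taken, and 10 of them passed the filter on dim probe sets and were tested. The other 3, 2 for Rgs9 and 1 for Pde10a, are given by their values.

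The mice were 3 weeks old, and each array held RNA pooled from the hippocampi of 3 to 4 of them. There were 5 groups of 2 arrays: A-CREB mice given saline, kainate at 14 mg/kg or kainate at 18 mg/kg, and wild-type mice given kainate at 14 mg/kg or saline. A-CREB is a dominant-negative inhibitor of CREB, a transcription factor that answers to cAMP, and kainate is a glutamate receptor agonist that provokes seizures. The A-CREB arrays are labelled TetO-A-CREB-95 C57BL6 F1/J, a transgene under a tetracycline-controlled promoter, and the labels name no driver for it. Of the 4 wild-type arrays 2 are labelled C57BL6 F1/J and the other 2 carry no strain label. No wild-type mice received 18 mg/kg, and the labels do not state when the tissue was taken after the injection. In all 20 A-CREB and 14 wild-type mice entered the pools, so every error measures a spread between pools and not between mice. The arrays of each group are numbered 1 and 2, and the median signal of an array was 94.9 to 106 where the number was 1 and 135 to 152 where it was 2. Errors of a fit without the number as a term also hold the shift between the numbers. Of 2 lists of hippocampal markers 5 of 5 for dentate granule cells and 7 of 7 for pyramidal cells passed the filter. Of the neocortical and the choroid plexus markers with a probe set 5 of 5 passed as well. Passing the filter therefore does not check the labelled tissue.

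Projection neurons make up most of the striatum and fall into a class that carries the dopamine D1 receptor and a class that carries the D2 receptor. Dopamine raises cAMP through the D1 receptor and lowers it through the D2 receptor, and the proteins of the other genes act within this pathway or in the making of these neurons. Drd1 and Drd2 encode the receptors. Ppp1r1b encodes DARPP-32, an inhibitor of protein phosphatase 1 that is switched on by protein kinase A. Pde10a encodes a phosphodiesterase that breaks down cAMP and cGMP, Rgs9 a GTPase-activating protein that ends G-protein signals, and Rarb a nuclear receptor for retinoic acid that takes part in striatal development. The hippocampus holds some neurons that express these genes, the D1 receptor in dentate granule cells among them. In bulk RNA, more cells of a type and more RNA per cell cannot be told apart.

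The promoters of Rarb, Drd1 and Drd2 are shown because Rarb is itself a target of the receptor family it belongs to and because the receptor genes define the cell classes. Each sequence is the 250 bases before an annotated start, 5′ to 3′ on the gene's strand, from RefSeq (GRCm38.p6). Capitals mark the motif found: in Rarb a retinoic acid response element, a pair of GTTCA half-sites in one direction with any 6 bases between them, and in Drd1 and Drd2 the GC box, GGGCGG, on either strand. Drd1 has another annotated start, whose window holds no GC box and is not shown. The windows are chr14:16575477-16575726 (minus strand) for Rarb, chr13:54054781-54055030 (minus strand) for Drd1 and chr9:49340153-49340402 (plus strand) for Drd2.
Rarb: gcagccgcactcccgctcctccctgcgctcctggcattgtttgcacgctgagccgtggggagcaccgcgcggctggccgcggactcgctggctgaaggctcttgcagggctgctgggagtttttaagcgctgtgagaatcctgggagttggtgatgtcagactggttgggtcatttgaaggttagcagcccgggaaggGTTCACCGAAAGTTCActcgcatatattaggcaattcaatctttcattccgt
Drd1: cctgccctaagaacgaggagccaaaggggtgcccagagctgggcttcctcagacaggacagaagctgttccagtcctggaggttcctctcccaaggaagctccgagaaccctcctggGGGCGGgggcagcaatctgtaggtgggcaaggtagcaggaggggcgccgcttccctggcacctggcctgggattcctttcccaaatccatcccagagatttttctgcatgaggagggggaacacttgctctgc
Drd2: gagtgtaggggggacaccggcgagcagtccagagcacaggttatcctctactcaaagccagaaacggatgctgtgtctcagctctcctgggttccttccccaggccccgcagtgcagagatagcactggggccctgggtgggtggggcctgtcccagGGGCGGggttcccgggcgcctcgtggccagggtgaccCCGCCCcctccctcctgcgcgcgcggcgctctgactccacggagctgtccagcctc
Of 7 such windows for 5 of the genes (none was used for Ppp1r1b), the retinoic acid element lay in 1, that of Rarb, against 0.067% of 32851 windows of all genes. Rarb was shown as a target of this receptor family, so its match is no result about the other genes. The GC box lay in 4 of 7, against 32.7% of all windows. A TATA box, TATAAA, lay in 1, that of Rgs9, against 12.4%. The full cAMP response element, TGACGTCA, and its 5-base core, TGACG, which lies within it, were searched on both strands and lay in 0 of 7 windows, against 1.55% and 17.8% of all windows. No match says only that these letters are not in these windows.

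The dopamine receptor genes stood higher on the second wild-type kainate array than on any other. Drd1 (probe set 1456051_at) had signals of 335 and 399 in A-CREB saline, 206 and 385 in A-CREB kainate 14 mg/kg and 212 and 286 in A-CREB kainate 18 mg/kg. On the wild-type arrays it had 164 and 1659 after kainate and 302 and 733 after saline, replicate 1 before replicate 2. The second kainate array was thus the highest of 10 and the first was the lowest, and the second wild-type saline array was next to the highest. The other Drd1 probe set, 1455629_at, had 127 and 144, 55.5 and 157, and 150.5 and 95.1 in the 3 A-CREB groups from saline to 18 mg/kg. It had 119.6 and 788 in wild-type kainate and 115 and 268 in wild-type saline, so both probe sets of the gene placed the same arrays first and second. Drd2 (1418950_at) had 66.1 and 100.2 in A-CREB saline, 60.5 and 109 in A-CREB kainate 14 mg/kg and 95.8 and 103 in A-CREB kainate 18 mg/kg. Its signals in wild-type mice were 52.8 and 449 after kainate and 66.0 and 191 after saline. As for Drd1 1456051_at, the wild-type kainate arrays lay on both sides of every other array.

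The DARPP-32 gene Ppp1r1b (1451331_at) had signals of 860.2 and 695 in A-CREB saline, 713 and 501 in A-CREB kainate 14 mg/kg and 477 and 518 in A-CREB kainate 18 mg/kg. In wild-type mice it had 587 and 2040.0 after kainate and 836 and 957 after saline. On the first arrays the kainate signal was below the saline one, and on the second arrays it was above. For Rgs9 (1418691_at) the signals were 249.7 and 572 in A-CREB saline, 311 and 429 in A-CREB kainate 14 mg/kg and 252 and 474 in A-CREB kainate 18 mg/kg. They were 367 and 1052 in wild-type kainate and 286 and 649 in wild-type saline. In all 5 groups Rgs9 was higher on the array numbered 2. The 2 other Rgs9 probe sets, 1426033_at and 1439635_at, were under the filter with signals of 7.32 to 109, and neither was highest on the second wild-type kainate array.

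Of the 5 probe sets for Pde10a the brightest, 1439618_at, had signals of 1296 and 2007 in A-CREB saline, 873 and 1829.9 in A-CREB kainate 14 mg/kg and 851 and 1727 in A-CREB kainate 18 mg/kg. It had 1057 and 5486 in wild-type kainate and 1192 and 1965 in wild-type saline. Without the 5486 the arrays numbered 2 spanned 1727 to 2007. Probe set 1458499_at had 1342 on that array and 275 to 495 on the other 9. Probe set 1419389_at had 784 there and 215 to 451 elsewhere. Probe set 1419390_at had 223 there and 12.5 to 120.2 elsewhere, and it passed the filter only through that array: without it, its mean ranked at percentile 38.3, under the limit. The fifth, 1432490_a_at, was under the filter with 35.8 to 128 and was highest on the second A-CREB saline array. The retinoid receptor gene Rarb (1454906_at) had 199.8 and 233 in A-CREB saline, 187 and 178 in A-CREB kainate 14 mg/kg and 189.6 and 225 in A-CREB kainate 18 mg/kg. Its wild-type signals were 133 and 511 after kainate and 195 and 217 after saline. Apart from the wild-type kainate arrays, which held its lowest and highest signals, all Rarb values lay between 178 and 233.

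**Figure D1:**
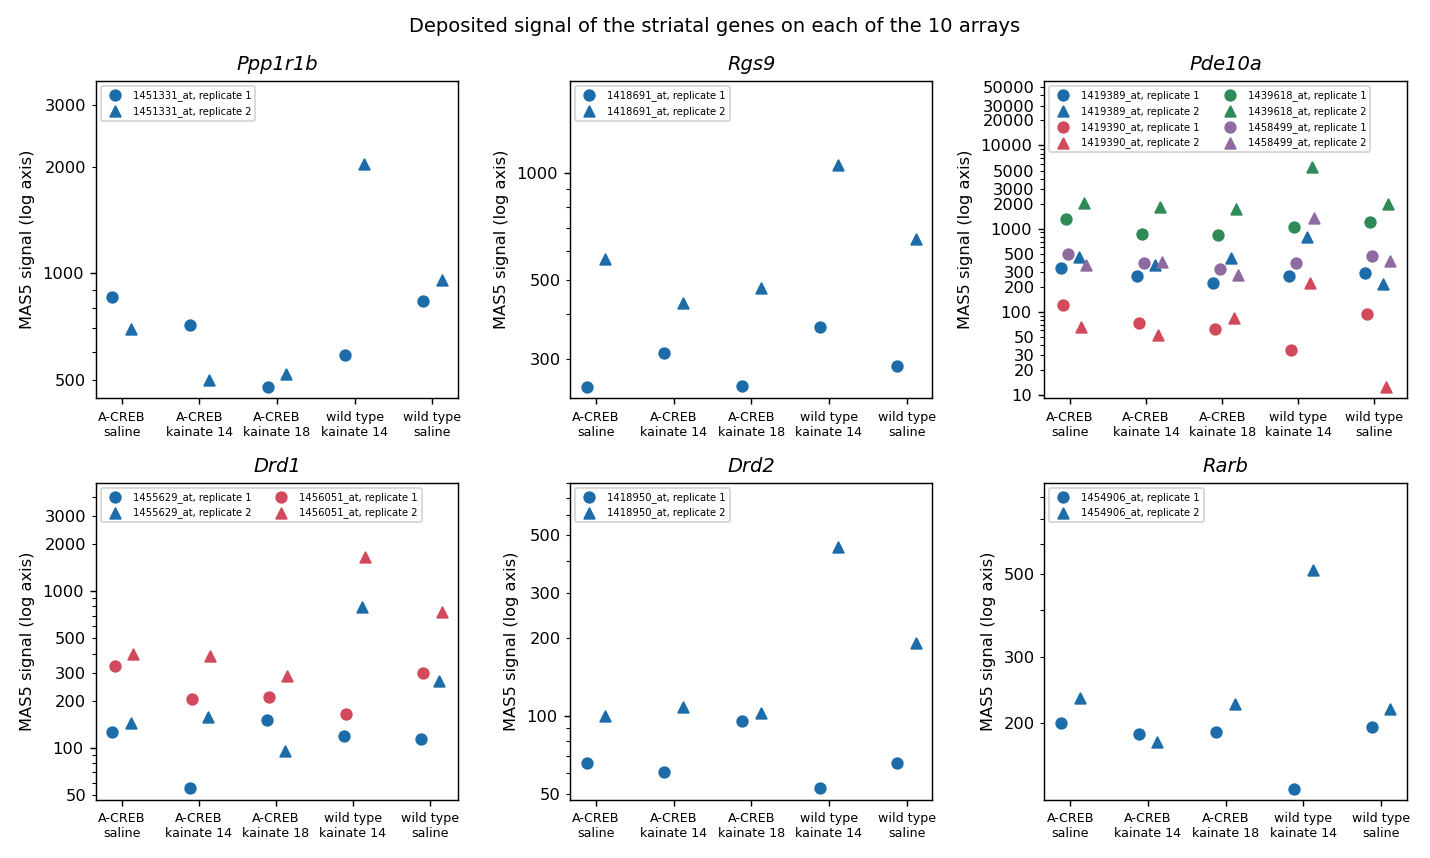
Deposited MAS5 signal (vertical log axis) of the 10 tested probe sets of 6 genes in the 5 groups, with circles for arrays numbered 1 and triangles for arrays numbered 2. The triangle of wild-type kainate is the highest point of every probe set, such as 1659 for Drd1 1456051_at.

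Set side by side, 10 of the 13 probe sets were highest on the second wild-type kainate array, and these were the 10 that were tested. Of all 27023 tested probe sets 9.6% were highest on that array. The second place went to the second wild-type saline array for 5 probe sets, to the second A-CREB saline array for 3 and to the first A-CREB saline array for 2. Since the arrays numbered 2 differed from those numbered 1, each array was also set against the mean of the other 4 arrays of its number, on the log2(signal + 22) scale. The excess of the second wild-type kainate array was 2.18 and 1.91 for Drd1, 1.71 for Drd2 and 1.63 for Ppp1r1b. For Pde10a it was 1.85, 1.81, 1.54 and 1.10, for Rarb 1.19 and for Rgs9 0.98. It reached 1, a 2-fold excess, for 9 of the 10, against 0.488% of all tested probe sets on that array, and the median was 1.67 against 0.00 over all tested. Pde10a 1419390_at, which passed the filter only through that array, is among the 10. Without it 8 of 9 reached 2-fold, with a median of 1.63. The other arrays numbered 2 were set against the remaining 3 of their number, without the second wild-type kainate array. There the second wild-type saline array reached 2-fold for 1 of the 10, Drd1 1456051_at at 1.01, against 0.651% of all tested, and had 0.94 for the other Drd1 probe set, 0.76 for Drd2 and 0.74 for Ppp1r1b. On the 3 A-CREB arrays numbered 2 and the 5 arrays numbered 1 no probe set reached 2-fold. The medians of the 9 other arrays ran from -0.23 to 0.33. On the arrays numbered 2 an array stood apart by Dixon's ratio for 3 of the 10 probe sets, each time the second wild-type kainate array as the high one, against 6.04% of all tested for any array and 0.507% for this one. On the arrays numbered 1 this was so for 1 of the 10, against 4.97%.

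**Figure D2:**
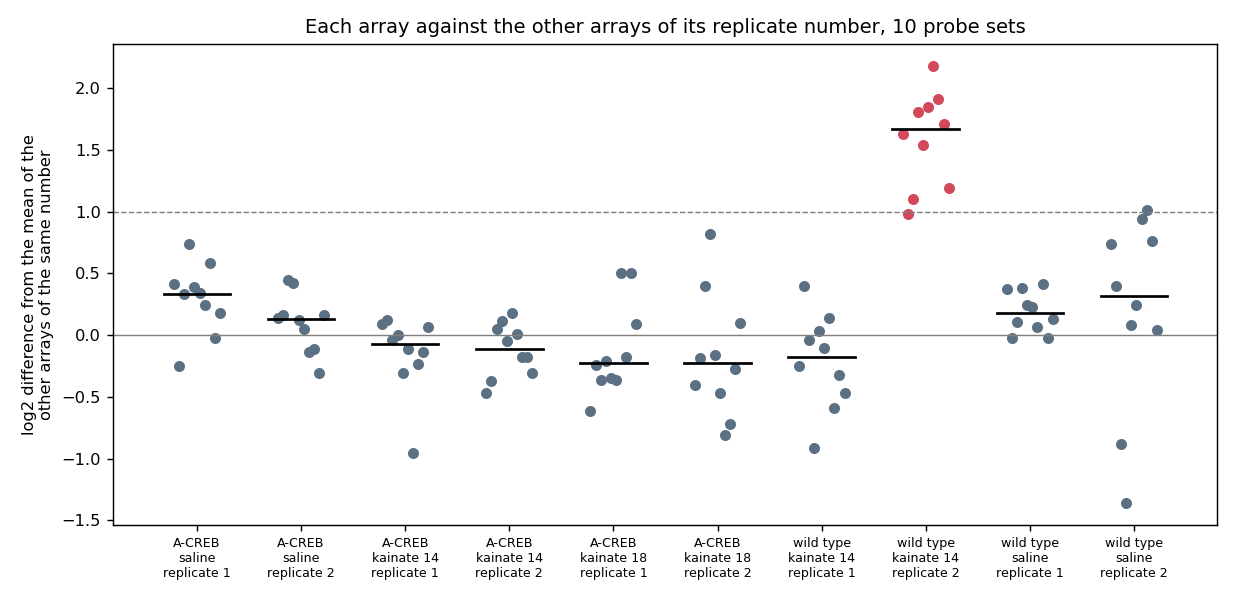
Log2 difference of each array from the mean of the other arrays with the same number (vertical axis), for the 10 tested probe sets (points) with their median (bar) and a dashed line at a 2-fold excess; for grey arrays numbered 2 the mean leaves out the second wild-type kainate array. That array (red) lies between 0.98 and 2.18, and 1 grey point, 1.01 on the second wild-type saline array, is past the line.

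Kainate in wild-type mice gave higher group means for all 10 probe sets, none of which passed the test. The log2 differences ran from 0.18 to 0.90 with a median of 0.58, against -0.04 over all tested probe sets. The largest were 0.90 (SE 0.77) and 0.82 (SE 0.47) for Pde10a 1419390_at and 1419389_at, and 0.77 (SE 0.75) for Drd1 1455629_at, the first of them the probe set that passed the filter only through the second wild-type kainate array. By limma with Benjamini-Hochberg adjustment 0 of the 10 probe sets passed, against 0.0629% of all tested (17 probe sets), and with the replicate number as a block again 0 passed, against 0.337% (91 probe sets). The lowest adjusted p over the 10 was 1, or 0.591 with the block, and 0 had an unadjusted p under 0.05 (2.7% of all tested), or 2 with the block (7.78% of all tested). Most of these signs rested on 1 array. Without the second wild-type kainate array 9 of the 10 differences were negative, from -1.41 to 0.09 with a median of -0.51, and with the block as well 8 were negative, with a median of -0.37 and a lowest adjusted p of 0.458. Without the first wild-type saline array 3 of the 10 signs turned, and without any other single array none did.

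Within the arrays numbered 1, wild-type kainate minus wild-type saline was -0.50 for Ppp1r1b, -0.80 and 0.05 for Drd1, -0.24 for Drd2 and -0.48 for Rarb. For Rgs9 it was 0.34, and for the 4 Pde10a probe sets it lay between -1.04 and -0.12. Within the arrays numbered 2 it was 1.07 for Ppp1r1b, 1.15 and 1.48 for Drd1, 1.15 for Drd2, 1.16 for Rarb, 0.68 for Rgs9 and 1.47 to 2.83 for Pde10a. The medians were -0.25 and 1.31. The 2 numbers gave opposite signs for 8 of the 10 probe sets, against 48.4% of all tested. In 0 of the 10 did the 2 kainate arrays lie apart from the 2 saline arrays, against 23.9% of all tested.

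**Figure D3:**
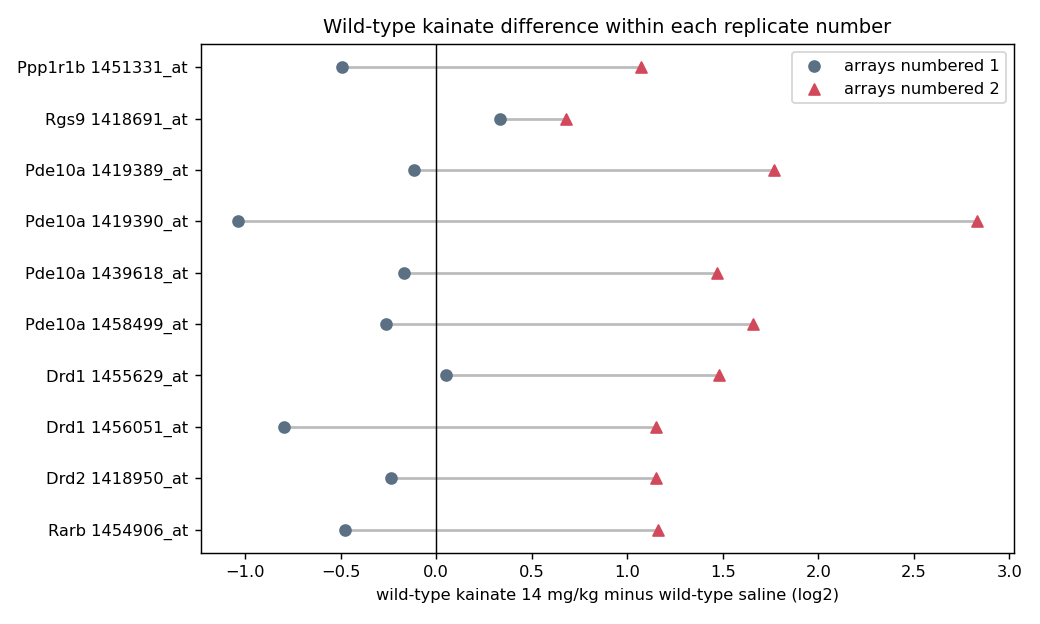
Wild-type kainate 14 mg/kg minus wild-type saline on the log2 scale (horizontal axis) for each of the 10 probe sets, from the arrays numbered 1 (circles) and those numbered 2 (triangles). Circles lie between -1.04 and 0.34 and triangles between 0.68 and 2.83.

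In A-CREB mice kainate gave mostly negative differences for the striatal genes, none of which passed the test. At 14 mg/kg against saline 9 of the 10 differences were negative, with values of -0.36 for Ppp1r1b, -0.42 and -0.35 for Drd1, -0.22 for Rarb and 0.00 for Drd2, and a median of -0.32. At 18 mg/kg against saline 9 were negative, with -0.62 for Ppp1r1b, -0.53 and -0.15 for Drd1, -0.06 for Rarb and 0.22 for Drd2, and a median of -0.26. The difference of Ppp1r1b at 18 mg/kg had an SE of 0.46, and its arrays lay apart from those of saline. Leaving out the first A-CREB kainate array of a dose turned 4 of the 10 signs at 14 mg/kg and 4 at 18 mg/kg, and leaving out another A-CREB array of the comparison turned 1 or 2. These comparisons share the saline arrays. By limma 0 of 10 passed at either dose (lowest adjusted p 1 in each), against 0.174% of all tested at 14 mg/kg and 0.0703% at 18 mg/kg, and 0 had an unadjusted p under 0.05 (3.83% and 2.48% of all tested). With the replicate block 0 of 10 passed, against 0.729% and 0.359%. The arrays of the groups lay apart for 1 of 10 at 14 mg/kg (27.8% of all tested) and 3 of 10 at 18 mg/kg (25% of all tested). Between the doses, 18 minus 14 mg/kg, the differences ran from -0.35 to 0.27, and 0 passed, with 0% called over all tested. The arrays of the doses lay apart for 2 of 10, against 17.9%.

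A-CREB against wild-type mice after kainate at 14 mg/kg gave negative differences for all 10 probe sets, and 0 passed, with 0% called over all tested. The values were -1.52 (SE 0.75) and -0.88 (SE 0.84) for Drd1, -0.85 (SE 0.77) for Drd2, -0.85 (SE 0.46) for Ppp1r1b, -0.74 (SE 0.58) for Rgs9 and -0.49 (SE 0.47) for Rarb. Those of Pde10a lay between -0.92 and -0.50. By limma the lowest unadjusted p of the 10 was 0.0712, with an adjusted p of 1 in each. With the block 0 passed, against 0.0037% of all tested, and 3 of 10 had an unadjusted p under 0.05 by limma (lowest 0.0079, for Rgs9), against 4.16%. The SE of Rgs9 was 0.23 with the block. In 0 of the 10 did the arrays of the genotypes lie apart, against 21%. The signs again rested on 1 array, and leaving out any of the other 9 turned none. Without the second wild-type kainate array 8 of the 10 were positive, from -0.27 to 0.71 with a median of 0.23. That fit sets a wild-type kainate array numbered 1 against A-CREB arrays of both numbers. With the block as well 7 of the 10 were positive, from -0.503 to 0.865 with a median of 0.098. Within the arrays numbered 1 the difference was positive for 5 of 10, and within those numbered 2 for 0 of 10, where it ran from -2.18 to -1.07.

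After saline the genotypes differed by -0.40 to 0.81 with a median of -0.11, A-CREB minus wild type, and 0 of 10 passed (0% over all tested, or 0.0037% with the block, where again 0 of 10 passed). The arrays of the genotypes lay apart for 1 of 10, against 21.2% of all tested. Drd1 was at -0.35 and -0.34, Drd2 at -0.40, Ppp1r1b at -0.21, Rgs9 at -0.18 and Rarb at 0.06. The 4 Pde10a probe sets spread from -0.03 to 0.81. The interaction, the A-CREB response to 14 mg/kg minus the wild-type response, was negative for 10 of 10 (median -0.74) and none passed by limma (lowest adjusted p 1, 0% called over all tested). An unadjusted p under 0.05 was found for 0 of 10 (0.588% of all tested), or 2 with the block (3.04%). Without the second wild-type kainate array the interaction was positive for 8 of 10, with a median of 0.18, and with the block as well for 6 of 10, with a median of 0.099. In this design an exact permutation test of 2 arrays against 2 cannot go below p = 0.333. For wild-type kainate against saline the widest 95% interval of the limma fit was that of Drd1 1456051_at. It reached from -1.70 to 2.06, which holds a 2-fold change in either direction, and with the block from -0.96 to 1.31. The narrowest without the block, that of Pde10a 1458499_at, ran from -0.33 to 1.72 and holds no 2-fold decrease.

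The replicate number went with 4 of the 10 probe sets, all higher on the arrays numbered 2 by limma with the number as a term, against 33.4% of all tested. They were Rgs9 (1.0, SE 0.15, adjusted p = 0.000654), Pde10a 1439618_at (1.15, SE 0.20, adjusted p = 0.00169), Drd1 1456051_at (1.17, SE 0.33, adjusted p = 0.0179) and Drd2 (1.03, SE 0.31, adjusted p = 0.0257). Ppp1r1b was at 0.25 (adjusted p = 0.460) and Rarb at 0.46 (adjusted p = 0.153). Drd2 missed the threshold when any 1 of the 4 wild-type arrays was left out (adjusted p from 0.0666 to 0.0882), and with the second wild-type kainate array left out it was at 0.62. The labels do not state what the number marks.

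Other striatal genes moved on the same array in part. A list of 40 held neuropeptides, ion channels, signalling enzymes and transcription factors of the striatum, of which 37 had a probe set and 33 were tested. On the second wild-type kainate array 23 of 33 were at their highest of the 10 arrays, 29 had a positive excess, 12 reached a 2-fold excess, and the median excess was 0.73. Of all tested probe sets on that array 9.6% were at their highest, 49.8% had a positive excess and 0.488% reached 2-fold. The largest were Scn4b, a sodium channel subunit, at 2.49, Penk, the enkephalin precursor of D2 neurons, at 2.35 and Gpr6, a receptor of the same neurons, at 2.23. The others past 2-fold were Rasd2 (1.36), Arpp21 (1.27), Pde1b (1.23), Ido1 (1.19), Gng7 (1.16), Lrrc10b (1.16), Ptpn5 (1.02), Foxp2 (1.01) and Tac1 (1.0), the substance P precursor of D1 neurons. Penk had signals of 572 and 492 in A-CREB saline, 624 and 660.4 in A-CREB kainate 14 mg/kg, 755 and 494 in A-CREB kainate 18 mg/kg, 909 and 3351 in wild-type kainate and 741 and 1044 in wild-type saline. Scn4b had 1497 on the second wild-type kainate array and 123 to 356 on the other 9. The 4 genes with a negative value were Dlx5 (-0.44) and Zfp503 (-0.06), both transcription factors, the cannabinoid receptor gene Cnr1 (-0.06) and Strn (-0.02). Gad1 and Gad2, whose enzymes make GABA in GABA neurons of all kinds, were at 0.07 and 0.00.

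In the group comparisons of that list 0 of 33 passed in wild-type kainate against saline (1 with the block, Rgs4, which rose by 1.20), where 0.0629% of all tested passed (0.337% with the block), and the list's median was 0.19 against -0.04 over all tested. In A-CREB mice 1 of 33 rose at 14 mg/kg and 1 at 18 mg/kg, in both cases Rgs4, a regulator of G-protein signalling, by 1.62 (adjusted p = 0.0112) and 1.33 (adjusted p = 0.0419) by limma, where 0.174% and 0.0703% of all tested passed. With the block 3 rose at 14 mg/kg, Rgs4, Arpp19 and Arpp21, against 0.729% of all tested, and 1 at 18 mg/kg, Rgs4, against 0.359%. In the comparisons between genotypes, between doses and in the interaction 0 passed.

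The partners of the dopamine pathway had mostly small positive excesses on the second wild-type kainate array. Of 20 genes for phosphatase 1 subunits, protein kinase A, G proteins, adenylyl cyclase and phosphodiesterases 19 were tested, and their median excess there was 0.13. The excess was positive for 17 of 19, against 49.8% of all tested, and 7 were at their highest of the 10 arrays, against 9.6%. A 2-fold excess was reached by 2, against 0.488% of all tested, Pde1b and Gng7, which the striatal list also holds. Of 8 tested retinoid genes 1 reached it, Rxrg at 1.57, which encodes a retinoid X receptor and partner of the retinoic acid receptors, and the median was 0.06. Of 5 tested genes for dopamine synthesis and transport 0 reached it, with Th, the rate-limiting enzyme of dopamine synthesis, at 0.59 and a median of 0.30. In these 3 lists 0 genes passed in wild-type kainate against saline, and with the block 1 did, Nr4a2, an activity-induced transcription factor of dopamine neurons, which rose by 1.89. Nr4a2 also rose in A-CREB mice at 14 mg/kg, by 2.08 (limma, adjusted p = 0.0302), and at 18 mg/kg with the block alone, by 1.71 (limma, adjusted p = 0.00432). Of the other dopamine and adenosine receptors 3 of 6 had a probe set and 0 passed the filter.

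Markers of other regions and cell types were set beside these values on the second wild-type kainate array. The median excess was 0.18 for 5 dentate granule cell genes, 0.25 for 7 pyramidal cell genes, -0.10 for 5 neocortical genes, 0.14 for 7 genes of the thalamus and habenula, 0.01 for 3 of the septum and ventricular zone, 0.41 for 5 of the choroid plexus and 0.11 for 5 of interneurons. It was 0.11 for 3 oligodendrocyte, -0.29 for 3 astrocyte and -0.57 for 3 microglial genes, and the 1 tested blood gene was at -0.13. None of these genes reached 2-fold. Of all tested probe sets 0.488% did so on that array, so this absence alone sets the lists apart from few others. The summed signal of the 37 measured genes of the striatal list was 64832 and 58741 in A-CREB saline. In A-CREB kainate it ran from 72449 to 74912 at 14 mg/kg and from 69214 to 69767 at 18 mg/kg. It was 78324 and 95663 in wild-type kainate and lay between 64357 and 65858 in wild-type saline. Every kainate array was thus above every saline array. The list holds Rgs4, which rose after kainate in A-CREB mice and, with the block, in wild-type mice, and its part in the sums was not tested. The summed signal of the dentate granule cell list ran from 6895 to 7455 in A-CREB saline. It ran from 5838 to 6196 in A-CREB kainate at 14 mg/kg and from 5758 to 6542 at 18 mg/kg. In wild-type mice it ran from 7161 to 7246 after kainate and from 5953 to 6690.0 after saline. Of 9 immediate-early genes, the early transcriptional answer to seizures, 5 rose in wild-type kainate against saline by limma, where 0.0629% of all tested passed. On the second wild-type kainate array the 9 had a median excess of 1.46, and 5 reached 2-fold (0.488% of all tested). The excess was positive for 9 of 9, and 0 were at their highest of the 10 arrays. The other 4 arrays numbered 2 include arrays of both saline groups, so any excess over them can include a response to kainate. The part of tissue make-up in the striatal values was not tested.

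**Figure D4:**
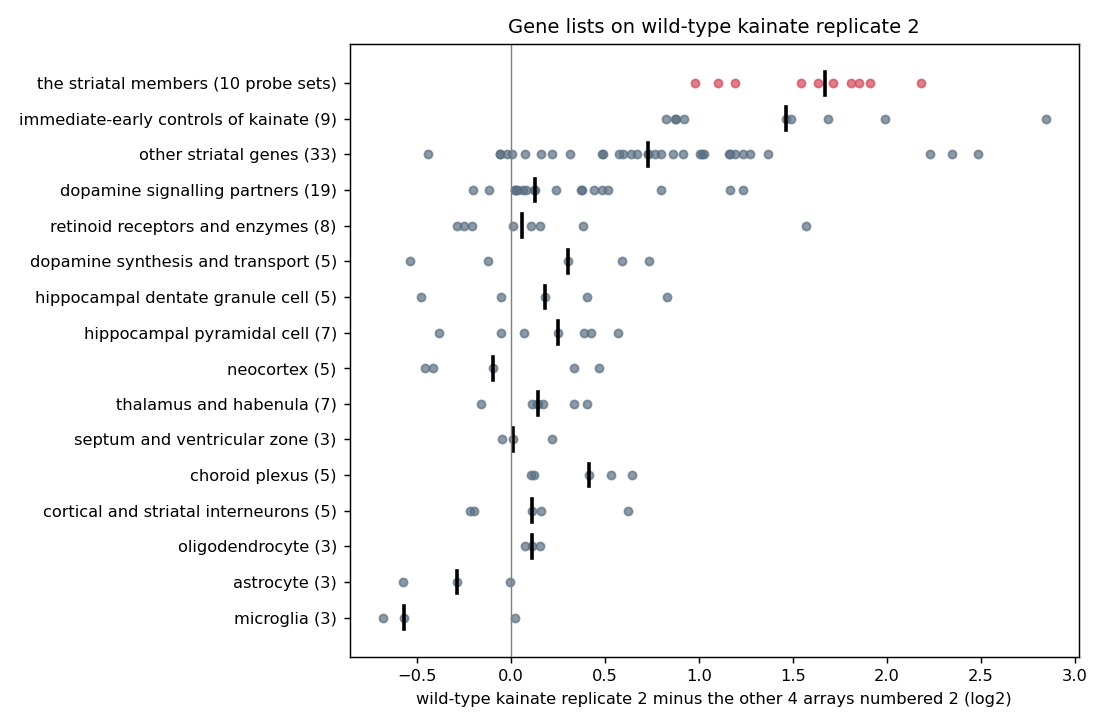
Excess of the second wild-type kainate array over the other 4 arrays numbered 2 (horizontal axis, log2) for the 10 striatal probe sets (red) and the tested genes of 15 lists (grey), with medians as bars and the number of points in brackets. The 10 probe sets have a median of 1.67, the immediate-early genes 1.46 and the other striatal genes 0.73. The dopamine signalling partners have 0.13 and the dentate granule cell genes 0.18.

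The 6 genes followed each other over the 10 arrays, after each array was set against the mean of its number, and less closely without the second wild-type kainate array. Among their brightest probe sets the correlation r of the 15 pairs ran from 0.673 to 0.945 over 10 arrays, with a median of 0.842, and without the second wild-type kainate array from 0.0527 to 0.864 over 9 arrays, with a median of 0.502. The pair Ppp1r1b and Drd1 had 0.945 with and 0.864 without that array, Drd1 and Drd2 0.895 and 0.72, and Rgs9 and Rarb 0.673 and 0.0527. These are descriptions of points that share pools and array scaling, and no r of other pairs of genes is given beside them. The 12 genes whose profile was most like the mean of the 6, with r from 0.929 to 0.986, were Klhdc3, Ptpn5, Gnb2, Scn4b, Elmod1, Pde1b, Gmppa, Mapk4, Znrd2, Gabbr1, Lrrc10b and Dynlrb1, and 4 of the 12 stand in the striatal list. Without that array their r ran from 0.719 to 0.959. Their excess on that array varied from 0.19 for Dynlrb1 and 0.37 for Klhdc3, the first in r, to 1.02 for Ptpn5, a striatal tyrosine phosphatase, and 2.49 for Scn4b.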

How the data were processed

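Each of the 10 arrays (Affymetrix Mouse430_2) was hybridised with pooled hippocampal RNA. The deposited values are intensity, the MAS5 signal of a probe set on a linear scale, made with MAS5 in GCOS per the submitters' processing notes, in versions that no source used here gives. The 2% trimmed mean was 500 on every array when checked. Detection calls were not used here, so a dim signal has no separate background check.

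The arrays hold 45101 probe sets. After 64 controls were set aside, 34945 had 1 gene, 932 several and 9160 none in a platform annotation table. No member shared a probe set with another gene. Signals were taken as log2(signal + 22), 22 being the 20th percentile of all signals, which lowers the fold of dim probe sets. The upper 60% by mean, 27023 probe sets, entered 1 model of limma 3.58.1 under R 4.3.3 (5 group means, eBayes with an intensity trend, 5 residual degrees of freedom, two-sided, Benjamini-Hochberg over all tested, threshold 0.05), which was tested on simulated data. The replicate number was a block in an alternative with 4 residual degrees of freedom. Over the 20 pairs of same-numbered arrays the deviations from the group means correlated with r from 0.512 to 0.626, so the numbers were taken to pair the arrays. Alternatives were other pseudocounts, no filter, quantile normalization, no intensity trend, the block and leaving out each array.

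The members and the lists were chosen with earlier results of these data known. All probe sets of the members are reported. The members' lists are described by counts and medians, the genes with the widest range over the arrays and those past 2-fold were named, the latter after their values were seen, as were Gad1, Gad2, Cnr1, Dlx5, Zfp503, Strn, Th, Nr4a2 and Rxrg, and likeness was the correlation with the mean profile of the members.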

Additional observations from a re-analysis of the deposited data

Results flagged for a closer look

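Among the 5 arrays of a number, the gap between the highest or lowest array and its neighbour was set against the range of the log2 values, with a critical value of 0.71 for 5 arrays, which chance passes in about 1 of 20 cases. On the arrays numbered 2 the second wild-type kainate array stood apart as the highest for Pde10a 1439618_at (0.871), Pde10a 1458499_at (0.756) and Rarb (0.753), 3 of the 10 probe sets. This array was the high one for 0.507% of all tested probe sets. On the arrays numbered 1 the first wild-type kainate array was the low one for Rarb (0.829). For Drd1, Drd2, Rgs9 and Ppp1r1b the second wild-type saline array, next to the highest, narrowed the gap. For Pde10a 1419389_at and 1419390_at the second wild-type saline array was the lowest and widened the range.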

How the results depend on the processing

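No striatal probe set passed the threshold in any of the 7 group comparisons under any alternative: other pseudocounts (5.5 and 88), no filter, quantile normalization, no intensity trend, the replicate block, or leaving out each array. The replicate block gave 0 of 10 in each, with a lowest adjusted p of 0.591 in wild-type kainate, and changed no call. Over all tested probe sets it moved the calls of wild-type kainate to 91 and of A-CREB kainate at 14 and 18 mg/kg to 197 and 97, against 17, 47 and 19 without it. Leaving out single arrays gave 3 to 38, 2 to 61 and 2 to 49, and no intensity trend gave 4, 4 and 2. For the replicate number 4 of 10 passed, 2 without an intensity trend, where Drd1 1456051_at and Drd2 had adjusted p of 0.0558 and 0.0521, 3 with quantile normalization (Drd2 adjusted p 0.168) and 3 to 5 when single arrays were left out. Of 80 log2 values per alternative (70 with the replicate block), none of the called ones changed sign. Among the uncalled, 27 changed sign without the second wild-type kainate array, 23 in the block fit without it (chosen after seeing the data), 10 without the first wild-type saline array, 8 or fewer without any other array and 2 or fewer under the other alternatives. With quantile normalization the second wild-type kainate array stayed the highest for 10 of 10 and past 2-fold for 9 of 10 (median excess 1.78). Leaving out Pde10a 1419390_at it was the highest for 9 of 9 (chosen after seeing the data). The number of arrays limits the precision.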
